A study of Mus musculus with 192 samples.

Results

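Of 12499 mouse genes with an annotated start-site window, 6 genes of the tripartite motif (TRIM) family were followed: Trim14, Trim21, Trim25, Trim26, Trim30a and Trim56. They were chosen by name. All windows that the RefSeq annotation gives to these genes and that lie within 1000 bp of an annotated start were used, 98 of 136788 such windows. In the cells kept for analysis these windows held 184 of 440435 listed promoter peaks on the strand of the gene. The cells were mouse embryonic fibroblasts (MEFs, connective tissue cells grown from embryos) of strain C57BL/6, profiled one by one by sequencing the 5′ ends of polyadenylated RNA, a method that places each read near the position where transcription began. The study set out to find alternative start sites in fibroblasts stimulated with interferon-beta (IFN-beta). Both groups received IFN-beta at 100 U/ml for 1 h. The naïve group of 96 cells had no earlier treatment named, and the 96 pretreated cells had an earlier treatment whose agent and duration are not named. Cells without IFN-beta were not analysed here.

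TRIM proteins carry a RING domain that transfers ubiquitin, B-box zinc fingers and a coiled coil, followed in most members by a variable domain that binds the target. Interferon binding at the cell surface activates STAT transcription factors, which act on interferon-stimulated response elements, and several TRIM genes are known targets of that pathway. Their products work on both sides of it, in the sensing of viral nucleic acid and in the restraint of the signal. Trim25 attaches ubiquitin chains to the RNA sensor RIG-I and so supports its signalling. Trim56 has been reported to support signalling through the DNA sensor adaptor STING. Trim14 lacks a RING domain and has been described as an adaptor at mitochondria beside MAVS. Trim30a has been reported to restrain NF-kappaB signalling by removing the adaptors TAB2 and TAB3. Trim26, encoded in the region of the major histocompatibility complex, has been reported to act on IRF3. Trim21 is a cytosolic antibody receptor that directs antibody-coated virus to the proteasome.

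The promoter sequences of the members are shown first, because their start sites are read against the interferon-stimulated response element. They come from the RefSeq promoter table on build GRCm38.p6, which gives 250 bases before and 50 after each start. It held 6 promoters of 5 members, with 2 separate starts of Trim30a and no promoter of Trim14. The core of the interferon-stimulated response element was searched as GAAANNGAAA on both strands. Each sequence reads 5′ to 3′ in the direction of the gene, in lower case, with matches to the core in capitals. Trim30a upstream start (chr7:104465203-104465293, minus strand), Trim30a internal start (chr7:104446097-104446187, minus strand), Trim21 (chr7:102565453-102565522, minus strand), Trim26 (chr17:36836956-36837026, plus strand), Trim25 (chr11:88999343-88999412, plus strand) and Trim56 (chr5:137116198-137116267, minus strand) read as follows.
Trim30a upstream: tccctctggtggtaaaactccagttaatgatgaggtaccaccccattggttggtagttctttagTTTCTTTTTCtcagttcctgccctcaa
Trim30a internal: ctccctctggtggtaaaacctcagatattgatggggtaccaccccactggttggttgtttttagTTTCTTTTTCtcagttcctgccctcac
Trim21: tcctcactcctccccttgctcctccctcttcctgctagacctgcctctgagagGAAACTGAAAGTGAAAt
Trim26: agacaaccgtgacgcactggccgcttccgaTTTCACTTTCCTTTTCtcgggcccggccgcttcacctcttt
Trim25: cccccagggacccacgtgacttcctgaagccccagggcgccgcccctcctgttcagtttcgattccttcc
Trim56: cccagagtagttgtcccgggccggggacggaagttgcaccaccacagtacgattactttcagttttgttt

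The core was present in 4 of the 6 member promoters, of which 2 were the similar promoters of Trim30a. It was present in 1131 of 32851 promoters of the same length in the whole table (3.44%) and in 6 of 61 promoters of other TRIM genes. Trim21 held 2 overlapping matches after its annotated start, at positions 13 and 19 counted from the start. Trim26 held 2 overlapping matches on the opposite strand at positions -160 and -154. Both Trim30a promoters held 1 match on the opposite strand, at position -36 of the upstream start and at position 2 of the internal start. The 300-base promoters of Trim30a aligned over 260 bases with 91.5% identity and 6 gap bases. Trim25 and Trim56 had no match to these letters in the window. The core of the gamma-activated site, searched as TTCNNNGAA, was found in none of the 6 member promoters, in 7 of 61 promoters of other TRIM genes and in 8.30% of all promoters. A match is a description of the letters and was not tested as a binding site.

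After cells with under 10% of the median total tags were left out, 92 naïve and 85 pretreated cells remained. Their total tags per cell had a median of 2305628 in the naïve group (305066 to 3857034) and of 2650490 in the pretreated group (502374 to 13174313), with no cell repeating the total of another. Pretreated cells listed more genes, with a median of 2934 per cell against 1969 in naïve cells. Mitochondrial peaks held 0.759% of the naïve peak tags and were listed at 0 in the pretreated cells. Of 4493 genes with a share of at least 20% in either group, 27 were at 0 in 1 group. Examples are Gm12338 (94.6% of naïve cells, 0 pretreated) and Gm20594 (71.8% of pretreated cells, 0 naïve). The cause of these differences was not tested. No culture, animal or plate is named, so each group is 1 sample, no test was run between the groups and no difference has a replicate check. Tags are reads without molecular identifiers, and all intervals (95%, exact for shares and counts, Newcombe for differences of shares) cover counting error only. Of 13 fibroblast markers 12 were listed, with Sparc in all 92 naïve and all 85 pretreated cells, Vim in 92 and 84, and Col1a1 in 85 and 84. Thy1 was listed in 1 naïve cell and no pretreated cell. Blood cell markers were at 0 for 8 of 12 genes in both groups, Ptprc, Itgam and Tyrobp among them. The others were Cd68 in 8 naïve and 3 pretreated cells, Fcer1g in 1 and 6, and Csf1r and Lyz2 in 1 naïve cell each. The summed level of that list reached at most 2414 tags per 10000000 in a naïve cell and 1397 in a pretreated cell, with a lowest value of 0 in both groups. All 6 epithelial markers and 5 of 6 endothelial markers were at 0.

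A TRIM member was listed in more pretreated than naïve cells. At least 1 of the 6 genes had a listed peak in 41 of 92 naïve cells (44.6%, interval 34.2 to 55.3) and in 70 of 85 pretreated cells (82.4%, interval 72.6 to 89.8). At least 2 of them were listed together in 7 naïve cells (7.61%) and in 39 pretreated cells (45.9%). No naïve cell listed more than 3 members and no pretreated cell more than 4. Over both groups, 5 of the 6 members were listed in a larger share of pretreated cells, the exception being Trim21. Among genes that reached the minimum share used below, that direction was the common one. Of 4493 genes that reached a minimum share of 20% in either group, 86.1% were listed in a larger share of pretreated cells. Their median difference was 17.2 percentage points. Over all 11690 genes listed in any kept cell, with no minimum, the median difference was 3.62 points. The share of these genes with that direction was not computed. The count of 5 of 6, which includes members below the minimum, thus has no like share beside it. Levels are tags per 10000000 tags of the cell, and a group level is the summed tags over the summed totals. On that scale 30.02% of the 4493 genes were at least 2-fold higher in pretreated cells and 9.10% at least 2-fold lower, with a median log2 ratio of 0.47. When that median was set to 0 by median-of-ratios scaling, which lowers each log2 ratio by 0.47, 17.5% of genes were at least 2-fold higher and 15.5% lower. Only Trim25, Trim26 and Trim30a reached the 20% minimum, Trim25 and Trim26 through the pretreated group alone. Trim26 was the 1 member of these 3 that was at least 2-fold higher, and none was 2-fold lower. Of the 1576 genes that reached the minimum through the pretreated group alone, 55.7% were at least 2-fold higher. Of the 2917 genes that reached it in naïve cells, 16.1% were.

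**Figure D1:**
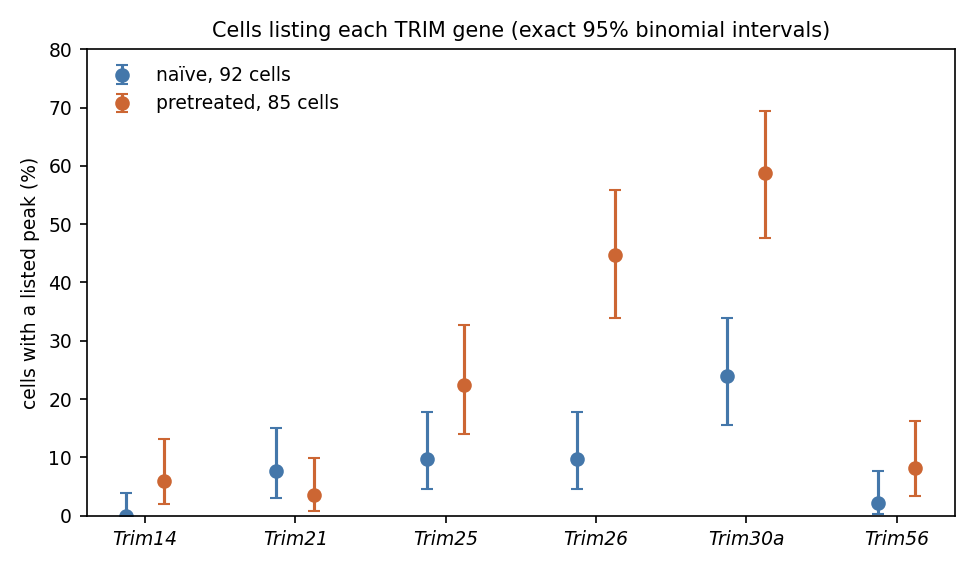
Share of kept cells (y axis, percent) with a listed promoter peak of each of the 6 TRIM genes (x axis) in naïve (blue, 92 cells) and pretreated cells (orange, 85 cells); bars are exact 95% binomial intervals. Trim30a stands at 23.9% and 58.8% and Trim26 at 9.78% and 44.7%, while Trim21 is the only gene with the lower share in pretreated cells.

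Trim30a, the reported NF-kappaB restraint factor, was the most widely listed member in both groups. It was listed in 22 naïve cells (23.9%) and 50 pretreated cells (58.8%), a difference of 34.9 points (interval 20.6 to 47.3). For 743 genes with a naïve share from 20% to 30%, the median pretreated share was 43.5%. These shares use the RefSeq names of windows. With the GENCODE annotation, Trim30a was listed in under 20% of the cells of either group. The level in the cells that listed Trim30a did not follow the share. In naïve cells it ran from 278 to 3674 with a median of 678, and in pretreated cells from 203 to 1203 with a median of 468. The ranges overlapped, and the highest naïve cells stood above every pretreated cell. The group levels of Trim30a were 286 (naïve) and 263 (pretreated), a log2 ratio of -0.12 (interval -0.17 to -0.07). The sign of this ratio turned when each cell weighed the same (0.27) and when the cell with the most Trim30a tags in each group was left out (0.03). Lower levels in listing cells were common, since the median log2 ratio of the mean level in listing cells was -0.32 over 4466 genes.

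Trim26 had the largest difference in group level among the 3 members that reached the minimum. It was listed in 9 naïve cells (9.78%) and 38 pretreated cells (44.7%), a difference of 34.9 points (interval 22.2 to 46.4). The 9 naïve cells had levels from 200.3 to 1790 with a median of 500.5, and the 38 pretreated cells from 217 to 1710 with a median of 448. The levels of listing cells thus covered nearly the same range in both groups, and the groups differed in how many cells listed the gene. The group levels were 62.2 (naïve) and 240 (pretreated), a 3.86-fold difference (log2 ratio 1.95, interval 1.86 to 2.04). It stayed at least 2-fold under the other scalings, with log2 ratios of 1.78 per promoter tag and 1.48 with median-of-ratios scaling. Among the 4493 genes this log2 ratio stood at percentile 89.4, and the difference in share at percentile 86.5. These ranks mix genes that passed in different ways, and Trim26 reached the minimum through the pretreated group alone. The 1576 genes that did so had a median log2 ratio of 1.17, and 55.7% of them were at least 2-fold higher.

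Trim25, the RIG-I ligase, was listed in 9 naïve cells (9.78%) and 19 pretreated cells (22.4%), a difference of 12.6 points (interval 1.73 to 23.5). The difference in share was below the median of all genes. Listing naïve cells had levels from 273 to 2737 with a median of 1077, and listing pretreated cells from 226 to 1541 with a median of 394. The ranges overlapped, and the naïve median was the higher. The group levels were 114 (naïve) and 170 (pretreated), a log2 ratio of 0.57 (interval 0.50 to 0.65). A single pretreated cell held 34.7% of the pretreated Trim25 tags, and without the cell with the most tags in each group the log2 ratio was 0.31.

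Trim14, Trim21 and Trim56 were listed in fewer than 10% of the cells of either group. Trim14, the adaptor without a RING domain, was listed in no naïve cell and in 5 pretreated cells (5.88%), with levels of 259, 356, 384, 410 and 523. The difference in share was 5.88 points (interval 0.663 to 13.04), and no fold is given against a group listed at 0. Trim56, the reported STING partner, was listed in 2 naïve cells, at 209.7 and 3650, and in 7 pretreated cells, from 273 to 1015 with a median of 466. The difference in share of 6.06 points had an interval from -0.78 to 14.02, which includes 0. Its group level of 57.99 in naïve and 47.6 in pretreated cells (log2 ratio -0.29) rested on 1 naïve cell with 94.1% of the naïve tags. With the top cell of each group left out, the log2 ratio of Trim56 was 2.92, and with each cell weighing the same it was 0.05.

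Trim21, the antibody receptor, had the opposite direction. It was listed in 7 naïve cells (7.61%), with levels from 221 to 1746 and a median of 615. The 3 pretreated cells that listed it (3.53%) had levels of 298, 435 and 1821. The difference in share was -4.08 points, with an interval from -11.7 to 3.35 that includes 0. The group levels were 78.6 (naïve) and 23.4 (pretreated), a log2 ratio of -1.75 (interval -1.88 to -1.62), and it was negative under all 11 alternatives computed for Trim21. With so few cells, the interval on tags does not describe the spread between cells.

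**Figure D2:**
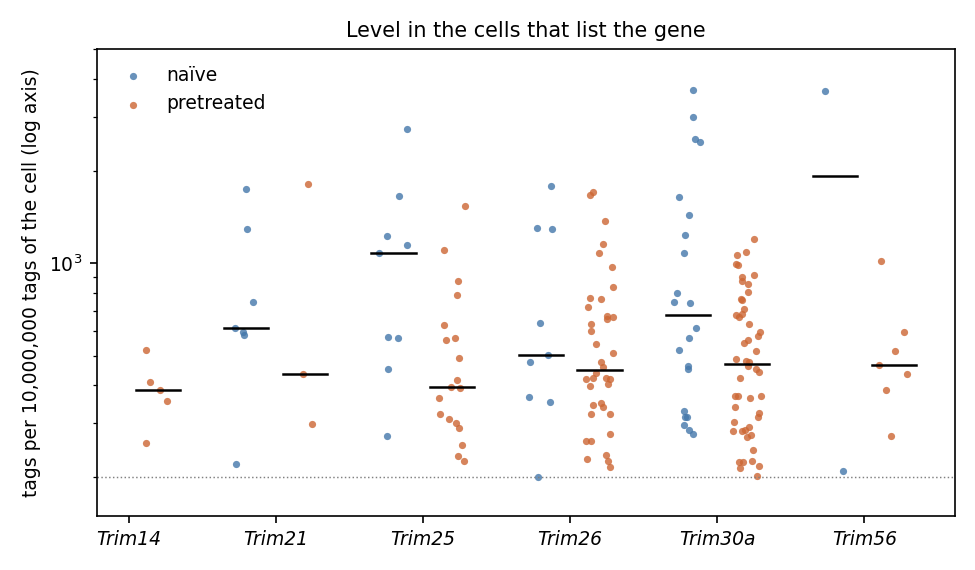
Level of each TRIM gene (y axis, tags per 10,000,000 tags of the cell, log scale) in each cell that listed it, naïve in blue and pretreated in orange; black lines are medians and the dotted line marks 200, the minimum score of the peak caller. The median of Trim30a is 678 in 22 naïve cells and 468 in 50 pretreated cells, and that of Trim26 is 500.5 and 448.

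The shares were compared again after each cell's listed tags were drawn down to a depth of 1122993 total tags, which kept 76 naïve and 83 pretreated cells. Trim30a was then listed in 26.3% of naïve and 57.8% of pretreated cells, Trim26 in 10.5% and 44.6%, and Trim25 in 10.5% and 22.9%. Trim21 was listed in 6.58% and 3.61%, Trim14 in 0% and 6.02%, and Trim56 in 2.63% and 8.43%. Each member kept the direction it had without thinning. The floor of the peak caller scales with the total of the cell, so thinning listed peaks does not repeat the peak calling.

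Within the pretreated cells, members were listed together about as often as the product of their shares gives. Trim26 and Trim30a were both listed in 25 pretreated cells, against 22.4 from the product of their shares, and in 2 naïve cells against 2.15. Trim25 and Trim30a shared 13 pretreated cells against 11.2, and Trim25 and Trim26 shared 10 against 8.49. The pairs with Trim14, Trim21 or Trim56 each shared 4 cells or fewer in either group.

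The number of members a cell listed was set beside its interferon level, the summed level of 20 interferon-induced genes that include no TRIM gene. That level had a median of 16171 tags per 10000000 in naïve and 95013 in pretreated cells. The list was not uniform: of 18 genes that reached the 20% minimum, 13 were at least 2-fold higher in pretreated cells and 1 lower. These compare with 30.02% and 9.10% of all genes. The lower one, Samd9l, was listed in 43 naïve cells and 0 pretreated cells. The minimum shapes the higher count. Rsad2, Irf7, Oasl2, Lgals3bp, Psmb8 and Psmb9, all among the higher genes, reached it through the pretreated group alone. Of all genes that passed in that way, 55.7% were at least 2-fold higher. Over the 92 naïve cells Spearman's rho was 0.41 between the number of members and the interferon level, and 0.05 between the number of members and the total tags. Over the 85 pretreated cells the same values were 0.13 and -0.18. Trim30a alone had rho of 0.37 in naïve and 0.21 in pretreated cells with the interferon level, and Trim26 had 0.09 and 0.11. With the total tags, Trim30a had rho of 0.01 in naïve and -0.27 in pretreated cells. These correlations are descriptions over cells, and all levels are scaled to the total tags of the cell. Among 2802 genes with a share of at least 20% in each group, Xaf1, an interferon-induced gene named for its partner XIAP and itself 1 of the 20, was the single gene with rho of at least 0.3 with Trim30a in both groups, at 0.31 in naïve and 0.46 in pretreated cells. No gene reached that value in both groups for Trim21, Trim25, Trim26 or Trim56, and Trim14 had no naïve level to compare.

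The 5′ ends of some members were listed at a single start site and those of others at more. Windows whose starts lay within 50 bp of each other were joined into 1 site, and coordinates are on mm9, the build of the deposited windows. Trim14 used 1 site (chr4:46548905-46549073) with window centres 15 to 34 bp after the annotated start. Trim21 used 1 site (chr7:109713857-109714041) with centres 30 to 65 bp after it, beyond position 19 where its second motif match begins on GRCm38.p6. Whether mm9 and GRCm38.p6 place the Trim21 start at the same base was not compared. Trim56 used 1 site (chr5:137591951-137592199) from 47 bp before to 52 bp after the start. These 3 genes had no other listed promoter site in either group. They also had the fewest peaks, at 0, 7 and 2 in naïve and 5, 3 and 7 in pretreated cells. Trim25, Trim26 and Trim30a had 9, 9 and 23 in naïve and 19, 39 and 61 in pretreated cells. With so few peaks, a single listed site does not show that the gene has no other.

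Trim26 had its main site at chr17:36974013-36974248, from 4 bp before to 82 bp after the start. This site held 98.5% of the naïve Trim26 tags (8 cells) and 86.8% of the pretreated tags (35 cells). A second site in the 5′ untranslated region, 317 to 373 bp after the start, was listed in 4 pretreated cells with 13.2% of the tags and in no naïve cell. Trim25 was more dispersed. Its site at chr11:88860656-88860882, 13 to 90 bp after the start, held 46.3% of the naïve tags (5 cells) and 85.4% of the pretreated tags (14 cells), of which 1688 of 4159 came from 1 cell. The other Trim25 peaks, 4 naïve and 5 pretreated, lay from 289 to 762 bp after the start in exon 1 or intron 1, each site in 1 or 2 cells of a group. Trim21 and Trim56 had a single site, so their leading site could not differ between groups. By tags, Trim25 and Trim26 had the first site as the leading one in both groups. For Trim25 the leading sites of the groups differed when windows at any distance were used or when windows were joined at 150 bp.

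**Figure D3:**
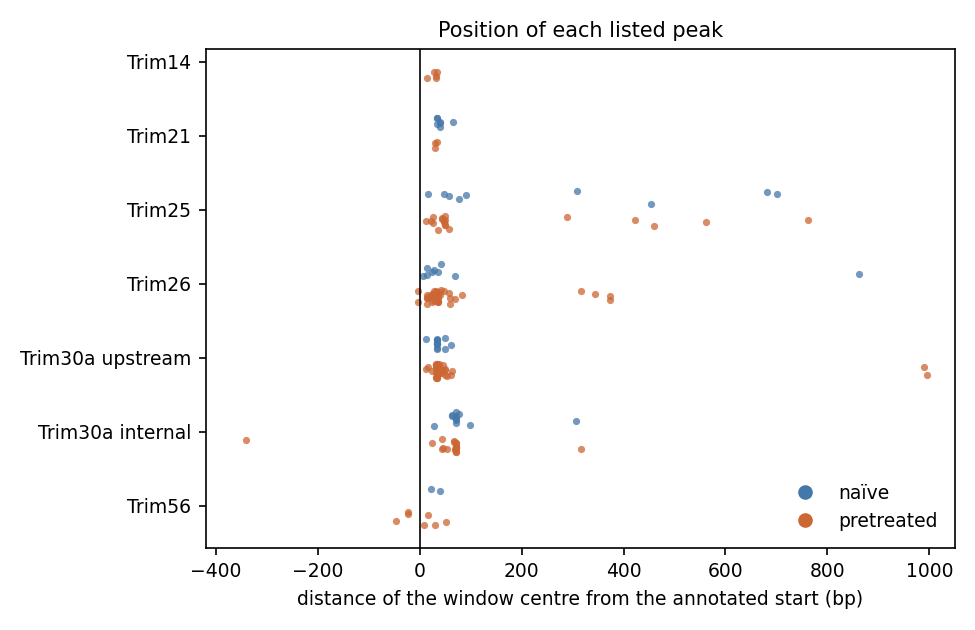
Distance from the annotated start to the centre of the 150 bp window of every listed peak (x axis, bp), for each gene and for both Trim30a starts (y axis), naïve in blue and pretreated in orange. Trim14, Trim21 and Trim56 peaks lie within 65 bp of the start, whereas Trim25 has peaks up to 762 bp after it.

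Trim30a was read from both of its annotated starts, which lie 19068 bp apart on chromosome 7. The upstream start (NM_009099) was listed in 12 naïve cells (13.04%, interval 6.93 to 21.7) and 40 pretreated cells (47.1%, interval 36.1 to 58.2), a difference of 34.02 points (interval 20.8 to 45.8). The internal start (NM_001357467), in the first intron of the longer transcript, was listed in 11 naïve cells (11.96%, interval 6.12 to 20.4) and 19 pretreated cells (22.4%, interval 14.03 to 32.7). Its difference of 10.4 points had an interval from -0.75 to 21.6, which includes 0. Naïve cells thus listed both starts about equally often, and pretreated cells listed the upstream start more often than the internal one.

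Among the cells that listed Trim30a, the upstream start was present in 54.5% of 22 naïve cells (interval 32.2 to 75.6) and in 80% of 50 pretreated cells (interval 66.3 to 89.97). The difference was 25.5 points, with an interval from 2.79 to 47.2. Only 1 naïve cell listed both starts, against 9 pretreated cells. By tags, the upstream start held 43.6% in naïve cells (2530 tags against 3278) and 73.4% in pretreated cells (5546 against 2008). Without the cell with the most Trim30a tags in each group these shares were 29% and 74.8%. By tags the internal site led in naïve cells, but this rested on 1 cell: without the naïve cell that held 819 internal tags, the internal site had 2418 tags against 2530 at the upstream start, whose share was then 50.7%. By number of cells, and by single windows (2217 upstream against 2207 internal tags in naïve cells), the upstream start led in both groups. In listing cells the upstream start had median levels of 516 (naïve, 278 to 3674) and 376 (pretreated, 218 to 1065), and the internal start 748 (285 to 3001) and 369 (203 to 902).

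The leading windows of both Trim30a starts sat at the same distance from the response element core printed above. The window chr7:111613599-111613748 (mm9, minus strand), listed in 24 cells with 4208 tags, led at the upstream start, with its centre 34 bp after that start. The window chr7:111594493-111594642, listed in 13 cells with 3262 tags, led at the internal start, 72 bp after it. The core lies at position -36 of the upstream and at position 2 of the internal promoter, so each leading window was centred 70 bp after the beginning of the core. The distance between the starts is the same, 19068 bp, on mm9 and on GRCm38.p6. Whether each start is the same base on both builds was not compared. A shift of the starts between builds would change both distances of 70 bp by the same amount.

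**Figure D4:**
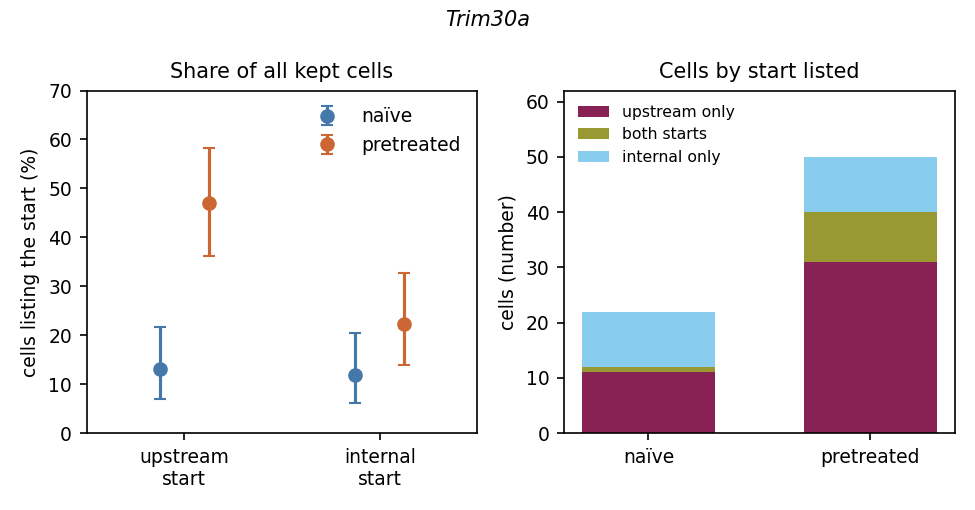
Left, share of all kept cells (y axis, percent) that listed the upstream or the internal start of Trim30a, with exact 95% binomial intervals. Right, number of cells (y axis) that listed the upstream start only, both starts or the internal start only: 11, 1 and 10 naïve cells and 31, 9 and 10 pretreated cells.

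Reads of Trim30a may be shared with close copies. In the first 150 bases of its annotated transcripts, 14.9% to 15.7% of the 30-base words also occurred in transcripts of other genes, Trim30b and Trim30d among them, so the assignment of its reads is uncertain. No such word was shared for Trim14, Trim21, Trim25, Trim26 or Trim56. The count covered other genes only, so words shared between the upstream and the internal start of Trim30a were not counted. The aligned promoters of these starts were 91.5% identical. Whether reads of one Trim30a start were assigned to the other was not tested. The comparison of the starts and their equal distances from the core rest on the deposited assignment. Trim30d was listed in 13 naïve and 9 pretreated cells, with group levels of 113 and 44.4. Its direction was opposite to that of the Trim30a share. How the authors treated reads that fit several places is not given in the sources used here.

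The concentration ratio of a peak, the fraction of its tags near the main position, had a lower median in pretreated cells for all 5 members listed in both groups. Its median was 0.98 in naïve and 0.886 in pretreated cells for Trim25, 0.95 and 0.882 for Trim26, 0.994 and 0.988 for Trim21, and 0.986 and 0.968 for Trim30a. For Trim56 it was 0.978 and 0.959. Trim21 had only 3 pretreated peaks and Trim56 only 2 naïve peaks. Over all listed peaks the medians were 0.974 (naïve) and 0.95 (pretreated), so the direction was not particular to the members. The share of all genes with a lower median in pretreated cells was not computed.

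The genes around the members, a list of 37 in RNA and DNA sensing and its ubiquitin steps, were compared the same way. Of these, 19 reached the 20% minimum. At least 2-fold higher levels in pretreated cells were found for 11 and 2-fold lower levels for none, against 30.02% and 9.10% of all genes, and the median log2 ratio of the list was 1.51 against 0.47. The minimum shapes these counts, since 11 of the 19 genes reached it through the pretreated group alone and these gave 8 of the 11 higher levels, where 55.7% of all genes that passed in that way were at least 2-fold higher. Of the 8 that reached 20% in naïve cells 3 were at least 2-fold higher, against 16.1% of all such genes. Among the genes that passed, the highest were Rbck1, a subunit of the linear ubiquitin chain complex, listed in 3 naïve and 29 pretreated cells (log2 ratio 6.01), Irf7, a transcription factor of the interferon genes, in 2 and 48 cells (5.66), and Ube2l6, which conjugates the ubiquitin-like ISG15, in 24 and 84 cells (3.36). Rbck1 and Irf7 passed through the pretreated group alone. The lowest were Ube2n, the ubiquitin-conjugating enzyme used for RIG-I signalling chains (-0.58), Tank, an adaptor of TBK1 (-0.54), and Usp15, a deubiquitinase reported to act on Trim25 (-0.49). Trim26, at 1.95, lay above the median of the whole list, and Trim25, at 0.57, and Trim30a, at -0.12, lay below it. Trim26 and Trim25 passed through the pretreated group alone. Both lay below the median of 2.14 of the list genes that passed in that way. Trim30a passed in naïve cells and lay below the median of 0.18 of the list genes that did so. The members' own median over the 3 genes that reached the minimum was 0.57, a description of these 3 and not of all 6.

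Other TRIM genes were listed sparsely. Of 53 other TRIM symbols 30 had a promoter window, 28 were listed in at least 1 kept cell and none reached the 20% minimum. A larger share in pretreated cells was found for 25 of the 28 and a smaller share for 3. How often this direction occurs among all genes below the minimum was not computed. Pretreated cells listed more genes of any kind, with a median of 2934 per cell against 1969. The count is thus not read as a trait of TRIM genes. In pretreated cells the most widely listed of them, chosen after their values were seen, were Trim16 in 9 naïve and 16 pretreated cells, Trim35 in 4 and 14, and Trim23 in 5 and 12. In naïve cells it was Trim30d, listed in 13 naïve and 9 pretreated cells. Trim30a and Trim26 were thus listed in more pretreated cells than any other TRIM gene, at 50 and 38.

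**Figure D5:**
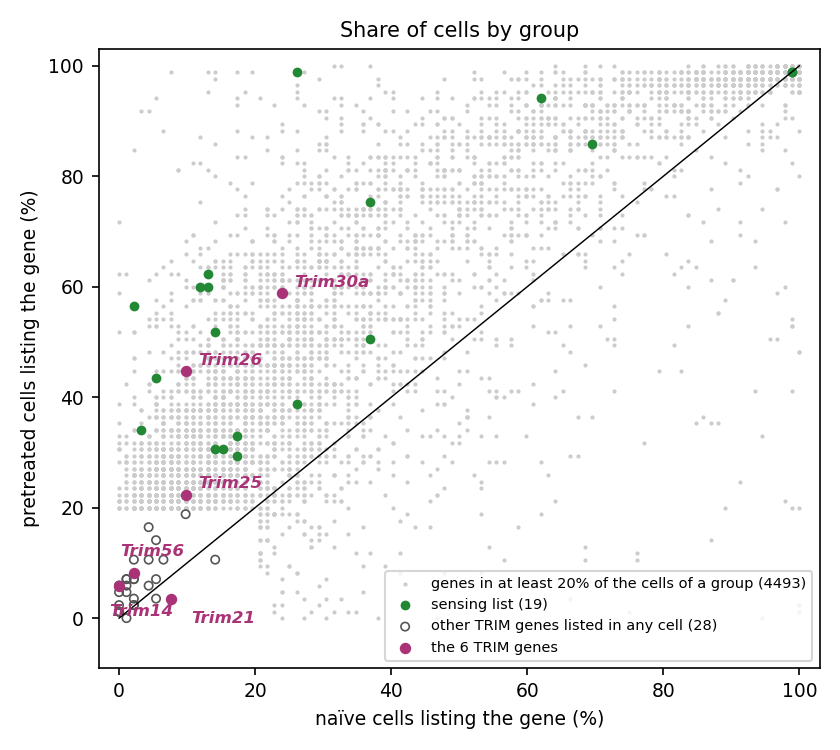
Share of naïve cells (x axis, percent) against share of pretreated cells (y axis, percent) that listed a gene, for the 4493 genes that reached a share of 20% in either group (grey), the 19 sensing genes among them (green), 28 other TRIM genes (open circles) and the 6 TRIM genes (purple); the line marks equal shares. Trim21 is the member below the line, and Trim30a and Trim26 lie above 40% of pretreated cells.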

How the data were processed

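Single-cell start-site libraries of 192 fibroblasts were analysed from 1 peak file per cell. Reads were aligned with Bowtie2 to mm9 and peaks called with HOMER, per the submitters' processing notes; filters on reads and what was done with duplicates are not given in the sources used here. Per the file headers, the authors called peaks of 150 bp per cell and strand at a stated minimum of 200 tags per 10000000. The listed signal was below 200 in 5129 of 1041638 peaks of the kept cells (0.492%), the lowest at 110, and no member peak was below 200.1. The deposited signal is a number of tags per 10000000 tags sequenced in that cell. The deposited concentration ratio is a fraction, HOMER's share of a peak's tags near its main position. Windows, gene names and distances come from the authors' deposited RefSeq table of 553094 windows.

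Tags were recovered as signal times the header total divided by 10000000. All 1082504 peaks gave whole tags within 0.1 tag or the rounding of the value, and their sum of 426263116 equals the headers. A peak took the window starting within 2 bp (1080791 peaks matched). Strands came from RefSeq or GENCODE entries, and 99 of 18460 genes had none. The design assumed counts, and the recovered tags took their place. A pair of deposited matrices with 384 unnamed per-cell columns was not used. Cells under 230562.75 total tags (10% of the median) were left out, 4 naïve and 11 pretreated.

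A log2 ratio is pretreated over naïve group level with 0.5 tag added to each sum. Genes compared were listed in at least 20% of the kept cells of either group. Named genes are the 6 members, the 3 highest and 3 lowest ratios of the sensing list, and up to 3 genes per member with Spearman's rho of at least 0.3 in both groups. The members and lists were chosen with earlier results of these data known. Alternatives changed the scaling, window distance, gene table, strand, cell and gene filters, added tags, depth and site chaining. The ratio was tested on simulated data with known fold changes, and its interval was not. The scripts used Python 3.11.15, numpy 2.4.6, pandas 2.3.3, scipy 1.17.1, Biopython 1.88 and matplotlib 3.10.9.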

Additional observations from a re-analysis of the deposited data

How the results depend on the processing

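With 1 sample per group, every alternative below gives a value with no test. The number of members at least 2-fold higher was 1 under 11 of 12 alternatives and 2 without a filter on genes, where Trim14 is counted beside Trim26 only because 0.5 tag was added to its naïve 0. Of all genes, 40.7% were at least 2-fold higher without a filter. Under the other 11 alternatives that share ran from 17.5% (median-of-ratios scaling) to 34.1% (top cell left out). The member counts are thus not read as particular to the members. Without the filter and with a minimum of 50 tags per 10000000, 1 member (Trim21) was at least 2-fold lower, against none of the 3 otherwise compared. Of all genes, 19.04% and 13.3% were at least 2-fold lower in these cases. The median log2 ratio over the members that reached the minimum was 0.57. It was 0.40 per promoter tag, 0.11 with median-of-ratios scaling, 0.27 as a mean over cells, 0.79 within 100 bp, 0.18 at any distance, 1.67 with the GENCODE table, 0.68 on both strands, 0.23 without a filter, 0.31 without the top cell, and -0.12 with a minimum of 50 tags per 10000000. The set behind this median changes with the filter (5 members in the last case) and with the gene table. With GENCODE, Trim26 alone reached the 20% minimum. Trim30a then stayed below it in both groups (log2 ratio -0.55), and Trim25 and Trim56 had no ratio. The main Trim30a shares thus hold for the RefSeq naming of windows. The median difference in share was 34.9 points, 9.32 without a filter and 12.6 with the minimum of 50 tags, which admit members listed in few cells. The leading site was shared by 4 of 5 members (not Trim30a). It was shared by 1, Trim30a, when single windows were not joined, by 3 at any distance or with joining at 150 bp, where Trim25 also differed, and by 5 by number of cells or without the naïve cell with the most internal Trim30a tags. The Trim30a ratio was positive as a mean over cells (0.27), at any distance (0.036) and without the top cell (0.026). That of Trim56 was positive in the same cases (0.050, 0.042 and 2.92). Trim25 (0.11 to 1.46), Trim26 (1.28 to 2.31) and Trim21 (-2.21 to -1.07) kept their sign. Leading sites without the top cell, without that naïve cell and by number of cells were alternatives chosen after seeing the data. No paired analysis was possible because the cell numbers only name cells and no test was run. A gene with no called peak in a cell is listed at 0 there, so low levels cannot be told from none.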

Other observations

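Peaks that carry a member's name but lie more than 1000 bp from an annotated start were not part of the comparisons. For Trim56 they outnumbered the promoter peaks: on the strand of the gene they were listed in 20 naïve and 25 pretreated cells and held 69.3% and 75.5% of all tags named for Trim56. Most of them lay in the 3′ untranslated region (6 and 9 peaks) or in windows annotated as intergenic (12 and 15 peaks). Trim25 had such peaks in 12 naïve and 20 pretreated cells, of which 10 of 13 naïve and 23 of 24 pretreated peaks lay in the 3′ untranslated region of a Trim25 transcript. Trim30a had them in 27 naïve and 45 pretreated cells, spread over introns, exons and 3′ untranslated regions. Some of these windows lie in transcripts that are not annotated as Trim30a. Peaks in the 3′ untranslated region of a Trim30a transcript numbered 3 in naïve and 23 in pretreated cells. Trim26 had distant peaks in 10 naïve and 11 pretreated cells, mostly in introns, Trim21 in 2 naïve cells and Trim14 in none.

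On the strand opposite to the gene, within 1000 bp of the start, listed peaks were few. Trim26 had 1 in naïve and 5 in pretreated cells, Trim30a 2 and 3, Trim56 1 and 2, and Trim25 1 in pretreated cells.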
